A study of Mus musculus with 16 samples.

Results

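Gene expression in skeletal muscle of mice lacking the cannabinoid 1 receptor in muscle was compared with that of wild-type mice, both fed a diet high in fat and sugar. The comparison takes in 8 of the 16 arrays of the study, chosen by their titles: 4 arrays titled as wild type on the high-fat, high-sugar diet (WT_HFHS) and 4 titled as knockout on it (CB1KO_HFHS), called WT 1 to 4 and CB1KO 1 to 4 from here on. Each was a one-colour Agilent array of muscle RNA from a male mouse aged 21 to 23 weeks, and the series design describes the 4 arrays of a group as biological replicates. The knockout mice (Skm-CB1R-/-) carried a loxP-flanked Cnr1 gene and Cre recombinase under the ACTA1 promoter, and the controls were their Skm-CB1R+/+ littermates. The growth protocol writes both genotypes as CNR1flox/flox-Cre+, so genotype was read from the titles. The mice ate the HFHS diet, with 49.2% of its energy as fat and 32.2% as sugar, for 15 weeks; the standard diet (SD) of the other 8 arrays had 16.7% and 12.4%. For WT_HFHS and CB1KO_SD the diet tag goes against the title, and the title, which fits the source name, the description and the series design, was followed. The protocol also speaks of random assignment to vehicle or S961, an antagonist of the insulin receptor, without saying which arrays received which, and the dissected muscle is not named. ACTA1 drives Cre in muscle fibres, so by this design vessels, nerve, fat and immune cells in the same piece of tissue keep an intact Cnr1, which was not measured.

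The cannabinoid 1 receptor is a G protein-coupled receptor that couples mainly to inhibitory G proteins and is activated by endocannabinoids, lipid messengers made on demand from membrane phospholipids. In muscle it has been studied for its part in insulin response and oxidative metabolism. The study's title names it together with interleukin 6, a cytokine that contracting muscle releases, and myostatin, a secreted inhibitor of muscle growth. Muscle fibres are further known for gene programmes set by their contact with the motor nerve: the subunits of the acetylcholine receptor are transcribed beneath the nerve ending in innervated adult fibres, and along the whole fibre before innervation or after denervation.

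The share of non-control spots well above background ran from 59.6% to 75.04% over the 8 arrays, and no spot was saturated. Of 9 muscle markers Acta1, Ckm, Mb, Ttn, Neb, Myh4 and Tnnt3 each lay on average above at least 99.1% of all genes, Des above 96.6% and Mylpf above 88.6%; Acta1 was between 9.12 and 9.93 on the log2 scale and Mb, the most variable, between 5.81 and 9.21. CB1KO 1 stood apart. It correlated across genes with the other 7 arrays at r between 0.949 and 0.971, against 0.977 to 0.993 for all other pairs, and it alone held 1 end of the first principal component, which took 58.7% of the variance. The SD of log2 signal was 3.97 on that array and 3.41 to 3.62 on the 4 WT arrays. CB1KO 2, 3 and 4 differed from it and from the other 12 arrays of the study in a second way: 14 of 19 genes of the exocrine and endocrine pancreas, a list drawn up after some of them had been seen, were lower there than on any of the other 13 arrays, while for Cela1, Cela2a, Ctrb1, Cel and Ptf1a the 3 arrays overlapped the others. How many of all genes were lower on these 3 arrays than on the other 13 was not counted. The mean over all 19 genes was -3.36, -3.73 and -3.80 on CB1KO 2, 3 and 4, -1.71 on CB1KO 1, and between -2.09 and -1.26 on the WT and SD arrays. Among the 14, Ins2, which encodes insulin, read -1.51 to -1.03 on the 3 arrays and 0.063 to 0.70 on the other 13, and Amy2a5, a pancreatic amylase, -0.95 to -0.35 and 1.35 to 2.74. Both HFHS groups lay on 1 slide with WT in 1 row and CB1KO in the other, so genotype and slide row cannot be told apart.

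**Figure D1:**
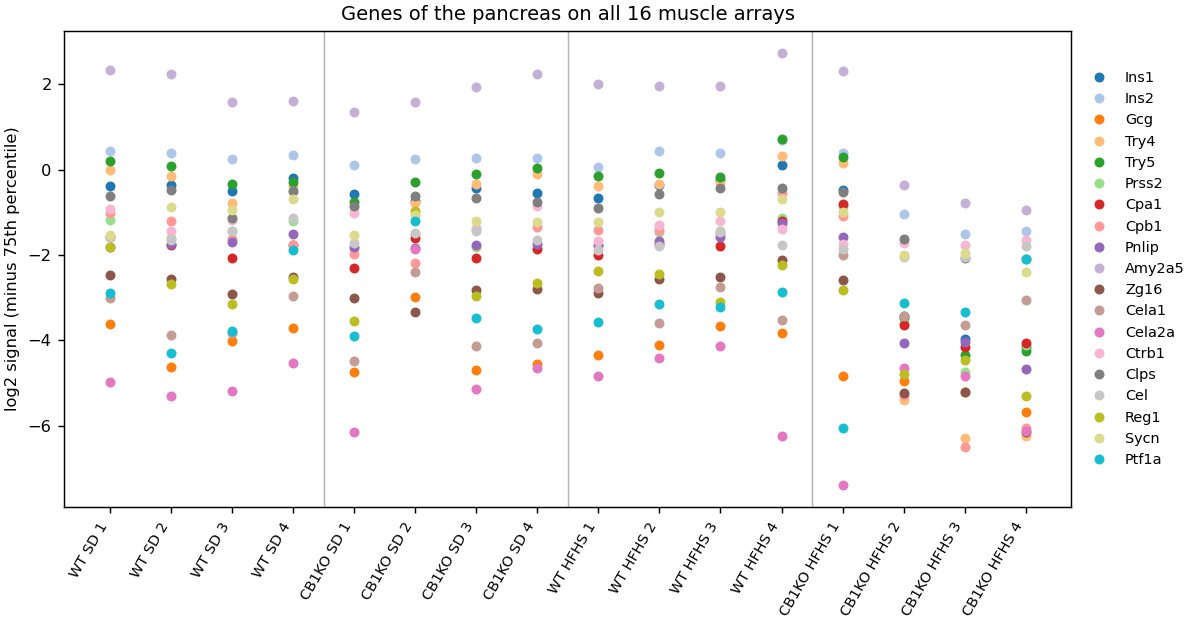
Log2 signal of 19 pancreas genes (minus each array's 75th percentile, vertical axis) on each of the 16 muscle arrays (horizontal axis), 1 colour a gene. On CB1KO HFHS 2, 3 and 4 their mean lay between -3.80 and -3.36, and on the other 13 arrays between -2.09 and -1.26; the list was drawn up after some of the genes had been seen to be low there, and for 5 of the 19 the 3 arrays overlap the others.

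Values are given as log2 signal minus the array's 75th percentile, so they are relative to the bright end of each array and are compared between arrays for 1 gene, never between genes. Differences are CB1KO minus WT with the standard error of a linear model over all 16 arrays, and adjusted p values are those of limma after Benjamini-Hochberg adjustment over the whole table; a gene passed where it was under 0.05.

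The targeted gene did not separate the groups. Cnr1 measured -1.93, -2.34, -3.18 and -1.75 on WT 1 to 4 and -1.49, -2.93, -2.44 and -2.91 on CB1KO 1 to 4. The groups overlapped, with CB1KO 1 the highest of all 8 arrays and WT 3 the lowest. The difference was -0.14 ± 0.46 (SE; adjusted p = 0.923; two-sided exact permutation p = 0.771), and it turned to 0.039, 0.020 and 0.013 without WT 4, CB1KO 2 or CB1KO 4. Only 1 probe for Cnr1 passed the background filter, and the labels do not say which stretch of the gene the recombination removes. Cells other than fibres also contribute RNA, and their share of the Cnr1 signal was not measured. Whether the genotype labels hold was not tested. Il6, the gene of interleukin 6, gave -3.36, -3.41, -3.91 and -2.75 on the WT arrays and -3.44, -3.53, -3.52 and -2.14 on the CB1KO arrays, overlapping groups with CB1KO 4 far above the other 3 knockouts. Its difference was 0.20 ± 0.61 (adjusted p = 0.922; exact permutation p = 0.714), and -0.14 without CB1KO 4. Mstn, which encodes myostatin, was at 2.97, 2.92, 1.46 and 3.24 on the WT arrays and at 2.50, 1.37, 1.74 and 1.42 on the CB1KO arrays. A single WT array, WT 3, lay within the range of the knockouts, and the other 3 lay above all of them. The difference of -0.89 ± 0.43 did not pass (adjusted p = 0.557; exact permutation p = 0.0857, where 4 against 4 arrays can give no less than 0.0286), and only with array weights did it (-1.21, adjusted p = 0.0337).

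Of 28972 genes tested, 72 passed the threshold, which is 0.249%: 51 were higher in CB1KO muscle (0.176%) and 21 lower (0.0725%). Most were far from the middle of the distribution, with a median difference of 1.94 among the higher and -1.11 among the lower genes, beside -0.14 over all genes. For all 72 the groups did not overlap, a pattern seen in 10.1% of all genes, 3.16% with the knockouts higher and 6.92% with them lower. These shares stand beside every lack of overlap given below. The background filter could be met by the 4 arrays of 1 group alone. Of the 51 higher genes 15 were well above background on no WT array, and of the 21 lower genes 3 on no CB1KO array. A symbol was known for 38 of the higher and 18 of the lower genes. Without CB1KO 1 the count was 134, without CB1KO 2, 3 or 4 it was 43, 15 and 24, and without WT 1 to 4 it was 26, 19, 36 and 31. After quantile normalization, which moved the median of all genes to -0.04, 50 genes were higher and 9 lower. All 72 kept their direction in each of these fits. Where 1 array was left out this was fixed in advance, since the groups of these genes did not overlap. Of 36 named genes that passed, quantile normalization ended 11 calls and a fit of the 8 HFHS arrays alone 16, those of Sln, Oc90, 1700042O10Rik, Rgs2, Chrna1, Psat1, Cd28, Dnase1, Nat1, 5730420D15Rik, Stab2, Foxd3, 8430426J06Rik, Tmem47, Slc38a11 and Crim1.

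Sln and Fgl1 gave the largest differences. Sln encodes sarcolipin, a small membrane protein that binds the calcium pump of the sarcoplasmic reticulum and uncouples its ATP use from calcium transport. It read 2.47, 0.55, 1.20 and -0.40 on WT 1 to 4 and 4.47, 7.45, 8.04 and 7.28 on CB1KO 1 to 4. All knockouts lay above all controls, CB1KO 1 nearest to them. The difference was 5.85 ± 0.71, or 57.9-fold (adjusted p = 0.00459), and 6.63 without CB1KO 1; with the 8 HFHS arrays alone the adjusted p was 0.0638. Fgl1 encodes fibrinogen-like protein 1, a secreted protein known mainly from liver. On the WT arrays it was never well above background, at -7.45, -7.23, -6.87 and -5.71, while the CB1KO arrays gave -2.42, -1.91, -0.26 and -0.81. Where a gene is well above background on no array of a group, only a bound on the fold can be had, from that group's values raised to the lowest signal called well above background on the same array, a level between -5.22 and -4.16. On that footing Fgl1 was at least 10.8-fold higher (fitted difference 5.47 ± 0.63, adjusted p = 0.00301), and a second, dimmer probe gave 3.40. Such dim genes also differ less under normexp background correction, where Fgl1 came to 2.27, still past the threshold.

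**Figure D2:**
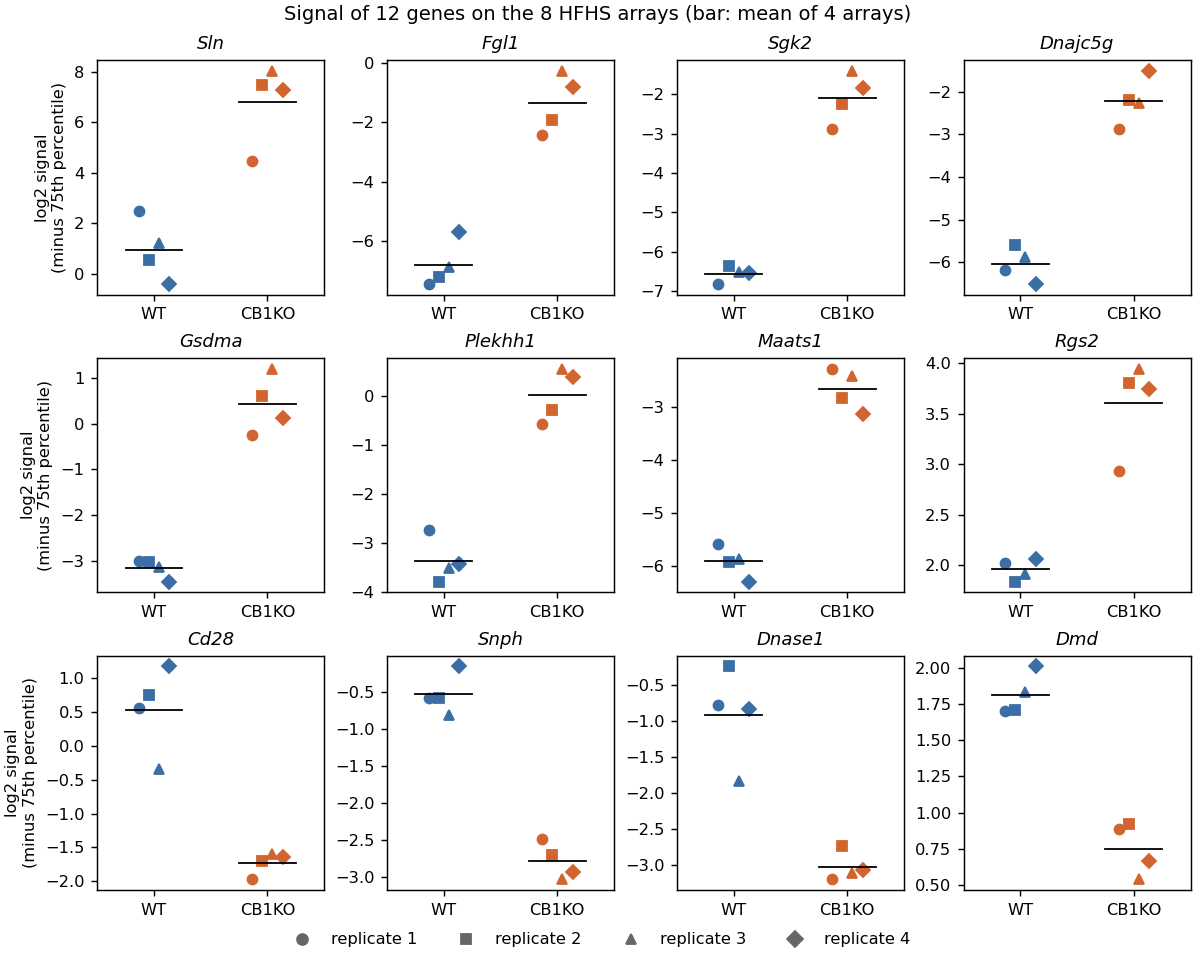
Log2 signal (minus each array's 75th percentile, vertical axis, scaled for each gene) of 12 genes on WT (blue) and CB1KO (orange) arrays of the HFHS diet; marker shapes give the replicate and bars the mean of 4 arrays. The 12 genes were picked from those past the threshold, none of which had overlapping groups, so no panel shows overlap of the genotypes. CB1KO 1 is the knockout nearest to the controls for Sln, Fgl1, Sgk2, Dnajc5g, Gsdma, Plekhh1, Rgs2 and Snph.

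Other genes that rose encode a kinase, a gasdermin, a chaperone and a regulator of G protein signals. Sgk2, a serum- and glucocorticoid-regulated kinase, was at -6.82 to -6.36 on the WT arrays and at -2.89, -2.25, -1.40 and -1.83 on CB1KO 1 to 4, at least 6.45-fold higher (adjusted p = 0.00539). Plekhh1, a pleckstrin homology domain protein, read -2.73, -3.79, -3.52 and -3.44 on the WT arrays and -0.57, -0.28, 0.57 and 0.40 on the CB1KO arrays. That was a difference of 3.40 ± 0.35 (adjusted p = 0.00214), and the gap between the groups was wider than the range of either. Gsdma, a gasdermin of the family whose cleaved members form membrane pores, stood at -3.01, -3.03, -3.13 and -3.46 in WT and at -0.26, 0.61, 1.20 and 0.13 in CB1KO muscle. Its difference was 3.58 ± 0.36 (adjusted p = 0.00214), and the 4 WT arrays lay close together. Dnajc5g, a member of the cysteine string protein family of chaperones, was well above background on the CB1KO arrays alone, between -2.87 and -1.50, and at least 5.96-fold higher (adjusted p = 0.00301). Rgs2 encodes a regulator that speeds the shut-off of G protein signals. Its 4 WT arrays lay between 1.84 and 2.06 and its CB1KO arrays read 2.93, 3.80, 3.94 and 3.74, a difference of 1.64 ± 0.23 (adjusted p = 0.0101). Leaving out WT 2 or CB1KO 3, or fitting the 8 HFHS arrays alone, ended this call, with adjusted p up to 0.0557. It was the 1 gene that passed among 24 regulators of G protein signalling, whose median difference was -0.05.

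Of the other named genes that rose, Arhgap36, an inhibitor of the catalytic subunit of protein kinase A, was at least 3.41-fold higher, Srrm4, a splicing factor of neuronal microexons, at least 3.002-fold, and Maats1, a gene of motile cilia and flagella, at least 4.33-fold (adjusted p = 0.00976, 0.0227 and 0.00539). The inner ear gene Oc90, the sperm gene Ropn1 and 1700042O10Rik were also well above background on the CB1KO arrays alone, by at least 2.92, 1.66 and 1.95-fold (adjusted p = 0.0101, 0.0246 and 0.0216). Acsm4, an acyl-CoA synthetase of medium-chain fatty acids, was at least 2.22-fold higher (adjusted p = 0.0216). On all 8 arrays well above background were Shisal1, with a difference of 3.37 ± 0.55, and Pcbd1, which recycles the cofactor tetrahydrobiopterin and assists the transcription factor HNF1, with 2.74 ± 0.44 (adjusted p = 0.0216 for both). Leaving out 1 array could end the call of each gene in this paragraph except Maats1: CB1KO 3 for Arhgap36, WT 2 or CB1KO 3 for Oc90, and 5 to 7 of the 8 arrays for the others, with adjusted p up to 0.114.

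The lower genes moved less. Cd28, the co-stimulatory receptor of T cells, read 0.56, 0.75, -0.35 and 1.18 on WT 1 to 4 and -1.97, -1.70, -1.60 and -1.64 on CB1KO 1 to 4. The knockouts lay close together and below every control, and the difference of -2.26 ± 0.31 (adjusted p = 0.00861) passed without any 1 array, though not after quantile normalization or with the 8 HFHS arrays alone (adjusted p = 0.0522 and 0.0532). Snph encodes syntaphilin, which anchors mitochondria to microtubules in axons. It was at -0.58, -0.58, -0.81 and -0.15 in WT and at -2.48, -2.70, -3.03 and -2.93 in CB1KO muscle, a difference of -2.25 ± 0.37 (adjusted p = 0.0216) that lost its call on leaving out any array but CB1KO 1. The nuclease gene Dnase1 differed by -2.11 ± 0.36 (adjusted p = 0.0246), with all knockouts between -3.21 and -2.74 and all controls between -1.83 and -0.23. Degs2, an enzyme that hydroxylates or desaturates sphingolipids, differed by -1.44 ± 0.16 (adjusted p = 0.00301), and Stab2, a scavenger receptor of sinusoidal endothelium that takes up hyaluronan, by -1.36 ± 0.23 (adjusted p = 0.0250). Nat1, an arylamine N-acetyltransferase, 5730420D15Rik and Toporsl were well above background on no CB1KO array, at least 2.36, 1.33 and 1.21-fold lower (adjusted p = 0.0216, 0.0216 and 0.00976). Foxd3, a transcription factor of neural crest, fell by 1.21, the transmembrane gene Tmem47 by 0.995, the amino acid carrier gene Slc38a11 by 0.85, and Crim1, a binder of bone morphogenetic proteins, by 0.75 (adjusted p = 0.0177, 0.0420, 0.0216 and 0.0432). 8430426J06Rik, a non-coding transcript, and 0610040J01Rik were at -1.11 and -1.06 (adjusted p = 0.0365 and 0.0477). With Dmd, described next, these are the 15 named genes with the largest drop. Of them Toporsl, Cd28 and Degs2 passed whichever HFHS array was left out. Normexp background correction with quantile normalization ended the calls of Toporsl and Degs2. Quantile normalization alone and the deposited scores also ended that of Degs2. Over all alternatives Degs2 differed by -1.58 to -0.47, with adjusted p up to 0.247. For each of the 15 besides Toporsl, Cd28 and Degs2, leaving out at least 4 of the 8 arrays in turn ended the call.

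Dmd encodes dystrophin, which ties the actin cytoskeleton to the membrane complex that reaches the extracellular matrix. It read 1.70, 1.71, 1.84 and 2.01 on the WT arrays and 0.89, 0.92, 0.54 and 0.66 on the CB1KO arrays. Both groups were tight and well apart, and the difference was -1.06 ± 0.18, or 2.09-fold (adjusted p = 0.0216). All 3 probes of Dmd that passed the background filter lay between -1.06 and -0.98. Leaving out CB1KO 1 or CB1KO 2 kept the call, and leaving out any other array ended it, with adjusted p up to 0.103. No other member of the dystrophin-glycoprotein complex passed. The sarcoglycan gene Sgcb was at -0.46 ± 0.18 (adjusted p = 0.420), with all knockouts below all controls, as in 6.92% of all genes. Over the 20 members the median was -0.03, and 13 lay below 0.

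The acetylcholine receptor of muscle is a ring of 5 subunits, in the adult made of products of Chrna1, Chrnb1, Chrnd and Chrne, with Chrng in place of Chrne before birth. Chrna1, the subunit that binds acetylcholine, read 2.10, 2.12, 2.50 and 2.30 on WT 1 to 4 and 3.50, 4.87, 5.57 and 5.43 on CB1KO 1 to 4. The controls were alike, the knockouts all lay above them and CB1KO 1 was the lowest knockout. The difference of 2.59 ± 0.44, or 6.01-fold, passed (adjusted p = 0.0246), as it did without CB1KO 1 (3.03, adjusted p = 0.00191) but not without any other 1 of the 8 arrays or with the 8 HFHS arrays alone (adjusted p up to 0.112), and a second probe gave 2.70. Chrnb1 was at -0.81, -0.63, -0.93 and -0.69 in WT and at -0.30, 0.02, 0.18 and 0.24 in CB1KO muscle. Its groups did not overlap either, by 0.80 ± 0.16 (adjusted p = 0.0641). Chrna9, a subunit of homomeric receptors best known from hair cells of the inner ear, went from -3.63 to -2.75 on the WT arrays to -1.77, -0.70, 1.58 and 0.08 on the CB1KO arrays (2.91 ± 0.62, adjusted p = 0.0800). Ache, the esterase that clears acetylcholine from the cleft, differed by 1.09 ± 0.31 (adjusted p = 0.222), again with no overlap.

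The other 3 subunits of the muscle receptor, looked at after their values were seen, gave 1.06 ± 0.31 for Chrne, 0.83 ± 0.34 for Chrnd and 0.65 ± 0.43 for Chrng (adjusted p = 0.247, 0.451 and 0.674), with overlapping groups for Chrnd and Chrng. On CB1KO 1 Chrne was at -1.39 and Chrnd at -0.41, within or near the range of the WT arrays, while CB1KO 2, 3 and 4 gave -0.52 to -0.43 and 0.50 to 1.13. Over the 18 genes of the receptor and the neuromuscular junction, 1 passed upwards and none downwards, 14 lay above the median gene and 5 had all knockouts above all controls, against 3.16% of all genes. Their median was 0.18, beside -0.14 over all genes, and the distance between these medians ran from 0.26 to 0.37 over the 22 alternatives. This list and the others were chosen with earlier results of these data known. Their counts beside the shares of all genes are therefore not a test. In 1 piece of tissue a difference in the number of cells of a type and a difference in RNA per cell cannot be told apart, here or in the results that follow.

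**Figure D3:**
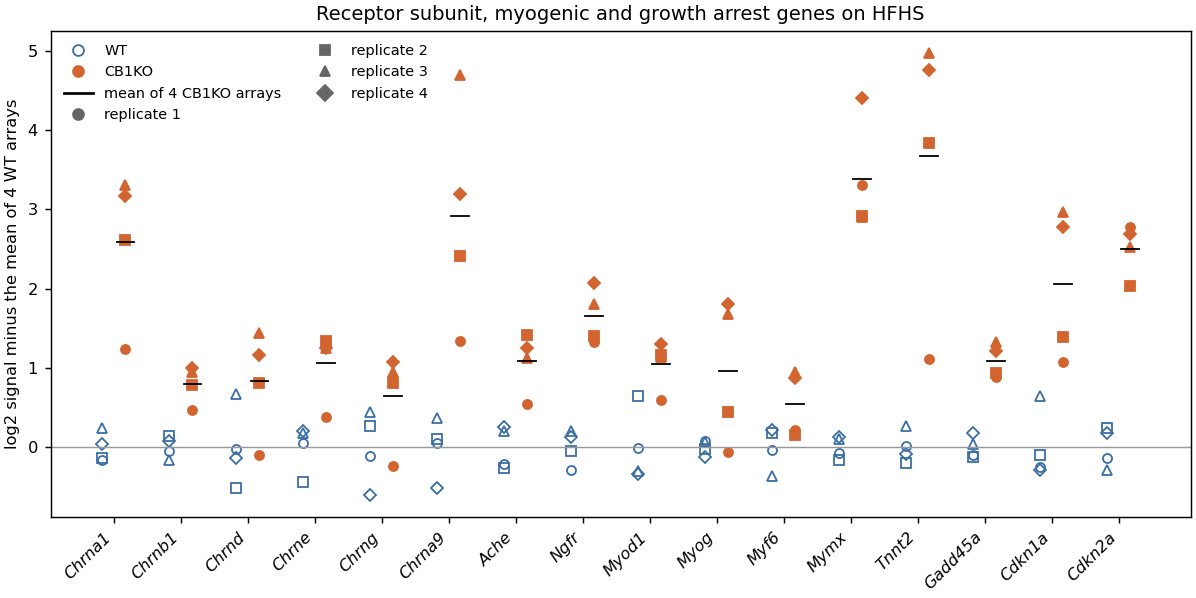
Log2 signal minus the mean of the 4 WT arrays (vertical axis) for receptor subunit, junction, myogenic and growth arrest genes on the HFHS diet: open blue WT, filled orange CB1KO, marker shapes for replicates, black bars the mean of 4 CB1KO arrays. Chrna1, Ngfr, Gadd45a and Cdkn2a passed the threshold. CB1KO 1 (circles) is the lowest knockout for Chrna1, Chrnb1, Chrnd, Chrne, Chrng, Chrna9 and Tnnt2, and also for Ngfr, Gadd45a, Myod1 and Myog.

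The promoters of these subunits are known for E-boxes, the sites of myogenic basic helix-loop-helix factors such as MyoD and myogenin. The RefSeq table (GRCm38.p6) holds 4 of them, shown here as the 200 bases before the start with each CANNTG, the E-box, in capitals. The motif reads the same on both strands, and CAGCTG, a form that myogenic factors bind, is 1 case of it.
Chrna1, chr2:73580339-73580538, minus strand: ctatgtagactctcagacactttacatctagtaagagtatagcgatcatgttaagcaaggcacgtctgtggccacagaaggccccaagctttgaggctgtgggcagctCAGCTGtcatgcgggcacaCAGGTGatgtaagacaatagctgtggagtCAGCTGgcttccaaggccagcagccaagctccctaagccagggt
Chrnb1, chr11:69795938-69796137, minus strand: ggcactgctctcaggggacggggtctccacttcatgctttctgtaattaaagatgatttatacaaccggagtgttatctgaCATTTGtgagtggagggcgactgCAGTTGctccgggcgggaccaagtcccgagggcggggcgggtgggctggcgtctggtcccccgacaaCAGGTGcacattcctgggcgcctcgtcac
Chrne, chr11:70619195-70619394, minus strand: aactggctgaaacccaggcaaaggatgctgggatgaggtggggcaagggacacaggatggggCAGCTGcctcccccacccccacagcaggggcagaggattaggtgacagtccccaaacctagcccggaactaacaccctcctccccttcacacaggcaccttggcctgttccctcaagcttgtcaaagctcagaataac
Chrna9, chr5:65966924-65967123, plus strand: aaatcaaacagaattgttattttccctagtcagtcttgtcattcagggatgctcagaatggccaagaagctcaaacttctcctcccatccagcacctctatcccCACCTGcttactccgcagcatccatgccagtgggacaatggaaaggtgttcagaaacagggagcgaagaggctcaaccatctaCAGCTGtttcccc
In the 250 bases before the start, Chrna1 and Chrnb1 each held 3 E-boxes, Chrna9 2 and Chrne 1. At least 1 was found in 66.2% of all 32851 promoters of that length, at least 3 in 12.2%, and CAGCTG in 13.0%. Among the 39 promoters of 29 genes that passed upwards the motif stood in 61.5% and CAGCTG in 12.8%. A match describes letters, not a bound site.

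The factors themselves did not pass. Myod1 was at -0.45, 0.21, -0.74 and -0.77 on the WT arrays and at 0.16, 0.73, 0.71 and 0.86 on the CB1KO arrays, with WT 2 inside the range of the knockouts (1.05 ± 0.31, adjusted p = 0.243). Myf6, the myogenic factor of adult fibres, differed by 0.55 ± 0.19 (adjusted p = 0.361). Myog, looked at after its values were seen, was -0.92 on CB1KO 1, -0.41 on CB1KO 2 and 0.82 and 0.95 on CB1KO 3 and 4, against -0.97 to -0.77 on the WT arrays (0.96 ± 0.47, adjusted p = 0.555). Tnnt2, the cardiac troponin T that skeletal muscle makes during development, came nearest to the threshold. It read -0.26, -0.47, 0.00 and -0.36 in WT and 0.84, 3.57, 4.70 and 4.48 in CB1KO muscle, a difference of 3.67 ± 0.71 (adjusted p = 0.0558) that passed without CB1KO 1 (4.52, adjusted p = 8.18e-04). Mymx, the micropeptide that completes myoblast fusion, was at -4.35 to -4.06 and at -0.88, -1.27, -1.29 and 0.21, a wide gap on HFHS, yet with a spread over all 16 arrays that left it at 3.38 ± 0.92 (adjusted p = 0.1996). None of 19 myogenic regulators and developmental myosins passed, 15 lay above the median gene, and their median was 0.07.

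Of 19 genes of growth arrest 2 rose, where 0.176% of all genes did, in a list likewise chosen with earlier results known. Gadd45a, a stress gene that muscle induces during atrophy, read 2.45, 2.43, 2.59 and 2.73 on the WT arrays and 3.44, 3.49, 3.87 and 3.77 on the CB1KO arrays. The 4 knockouts were all above the 4 controls by a margin wider than either group's range, and the difference was 1.09 ± 0.17 (adjusted p = 0.0177). Cdkn2a, the locus of the cell cycle inhibitor p16 and of p19Arf, was at -2.47, -2.08, -2.62 and -2.15 in WT and at 0.45, -0.30, 0.19 and 0.36 in CB1KO muscle, a difference of 2.51 ± 0.42 (adjusted p = 0.0227). Leaving out WT 1, WT 2, CB1KO 3 or CB1KO 4 ended both calls, and WT 3 or WT 4 that of Cdkn2a as well, with adjusted p up to 0.0985. Cdkn1a, the gene of the inhibitor p21, gave 2.05 ± 0.41 with the brighter of its kept probes (adjusted p = 0.0647) and -0.02 with the other. Cdkn1c, the gene of p57, differed by 0.51 ± 0.13 (adjusted p = 0.186), also without overlap. In this list 15 genes lay above the median gene, and the median was 0.04, a distance of 0.18 that was 0.11 without WT 3 and 0.083 without CB1KO 4.

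The metallothionein genes Mt1, Mt2 and Mt3, whose products bind zinc and copper, were higher on every CB1KO array than on every WT array without passing the threshold, a lack of overlap seen upwards in 3.16% of all genes. Mt2 read 3.76, 4.93, 2.97 and 3.58 on the WT arrays and 5.93, 5.66, 6.54 and 6.45 on the CB1KO arrays (2.34 ± 0.56, adjusted p = 0.132). Mt3 differed by 1.52 ± 0.39 and Mt1, added after its values were seen, by 1.40 ± 0.45 (adjusted p = 0.166 and 0.302). The groups overlapped for Mt4, also looked at later (-0.04 ± 0.50, adjusted p = 0.981). The zinc exporter Slc30a2 was at -0.79 ± 0.21 (adjusted p = 0.186), with all knockouts below all controls, as in 6.92% of all genes. The 12 genes of the list had a median of -0.05, and none passed.

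Psat1, a transaminase of the serine synthesis pathway, rose. It read -0.16, -0.87, -0.95 and -0.86 on the WT arrays and 0.83, 0.78, 2.17 and 1.84 on the CB1KO arrays, where CB1KO 3 and 4 were the highest and WT 1 the control nearest to the knockouts. The difference was 2.12 ± 0.37 (adjusted p = 0.0269), but a dimmer probe of the gene gave 0.36, and the call ended on leaving out any array except CB1KO 1 and CB1KO 2, with the mean of its probes, with the 8 HFHS arrays alone, with the replicate number as a block, after quantile normalization and with the deposited scores (adjusted p up to 0.112). Chac1, a glutathione-degrading enzyme of the integrated stress response, was lower on every CB1KO array, as were 6.92% of all genes (-0.67 ± 0.22, adjusted p = 0.312). In the list of serine synthesis and the integrated stress response 1 of 19 genes passed and the median was 0.00. Among 25 heat shock chaperones none passed, 13 lay above the median gene, and the sign of the distance between list and gene medians changed in 14 of the 22 alternatives.

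Sln was the 1 gene that passed among 21 of calcium handling, and the rest gave a median near that of all genes: -0.17 over the list. Cacna2d1, an auxiliary subunit of the voltage-gated calcium channel, was at -0.52 ± 0.15 (adjusted p = 0.247). All its knockouts lay below all controls, as in 6.92% of all genes. Sln was also the 1 gene that passed among 18 slow-twitch fibre genes. That list varied more within the groups than between them: its mean was 2.70, 2.95, 4.20 and 0.23 on WT 1 to 4 and -0.44, 4.29, 2.29 and 2.88 on CB1KO 1 to 4. The slow myosin gene Myh7, picked after its values were seen, ran from -1.22 on WT 4 to 6.66 on WT 3 and from -3.69 on CB1KO 1 to 6.41 on CB1KO 2 (-2.09 ± 2.13, adjusted p = 0.766), and the fast oxidative myosin gene Myh2 fell to -0.25 on CB1KO 1 against 5.60 or more on the other 7 arrays. On WT 4 and CB1KO 1 both Sln and the list mean were the lowest of their group. Among 17 fast-twitch genes none passed, and Mylk2, a kinase of myosin light chains in skeletal muscle, was lower on every CB1KO array (-0.59 ± 0.15, adjusted p = 0.150). Of the ion channels of excitability, Kcnab1, an auxiliary subunit of potassium channels, came nearest: 0.67, 0.63, 0.10 and 0.85 in WT against -0.22, -0.73, -0.88 and -1.09 in CB1KO muscle (-1.29 ± 0.25, adjusted p = 0.0558). The sodium channel subunit Scn4b was at -0.47 ± 0.14 (adjusted p = 0.255), and none of these 19 genes passed.

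Genes of the respiratory chain and the tricarboxylic acid cycle lay lower in CB1KO muscle by small amounts, none past the threshold. Of 40 genes of respiratory complex I, 38 lay below 0 and 3 lay above the median gene, with a list median of -0.26, where 31.4% of all genes lay above 0. All 35 genes of complexes II to V lay below 0, with a median of -0.25, and 21 of 22 genes of the tricarboxylic acid cycle did, with a median of -0.21. The distance to the median gene was thus -0.13, -0.11 and -0.07, and over the 22 alternatives it ran from -0.23 to -0.092, from -0.22 to -0.057 and from -0.17 to -0.037. The 22 genes of mitochondrial biogenesis and dynamics had a median of -0.14, that of all genes, with 11 above the median gene, 17 below 0 and none past the threshold. Cycs, which encodes cytochrome c, read 7.56, 7.90, 7.98 and 7.53 on the WT arrays and 7.16, 7.50, 7.34 and 6.97 on the CB1KO arrays. Its groups just missed each other, and the difference was -0.50 ± 0.16 (adjusted p = 0.286). Ndufb9 and Ndufv3 of complex I differed by -0.39 ± 0.12 and -0.42 ± 0.14, and Uqcrfs1, the iron-sulphur subunit of complex III, by -0.41 ± 0.15 (adjusted p = 0.291, 0.304 and 0.397). Of the biogenesis list Esrra, a nuclear receptor that drives mitochondrial genes, was at -0.56 ± 0.17, and Pcx, pyruvate carboxylase, was at -0.60 ± 0.18 (adjusted p = 0.268 and 0.280).

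Of 36 genes of fatty acid uptake, lipolysis and beta-oxidation none passed and 30 lay below 0, with a median of -0.29 on HFHS against 0.23 on SD. The distance to the median gene, -0.15, rested on single arrays: it was -0.028 without WT 3, -0.28 without WT 4, -0.27 without CB1KO 2 and -0.24 without CB1KO 4. Decr1, the reductase for unsaturated fatty acids, was at -0.63 ± 0.20, and Etfdh, which passes electrons from acyl-CoA dehydrogenases to ubiquinone, at -0.56 ± 0.24 (adjusted p = 0.290 and 0.478). The glycogen primer gene Gyg was lower on every CB1KO array, as were 6.92% of all genes (-0.61 ± 0.19, adjusted p = 0.267). The 30 genes of glucose uptake, glycolysis and glycogen had a median of -0.06 and none passed. No gene passed among the 31 of insulin, Akt and mTOR signalling either, with a median of -0.08, or among the 24 of fatty acid and triglyceride synthesis, with a median of -0.07.

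**Figure D4:**
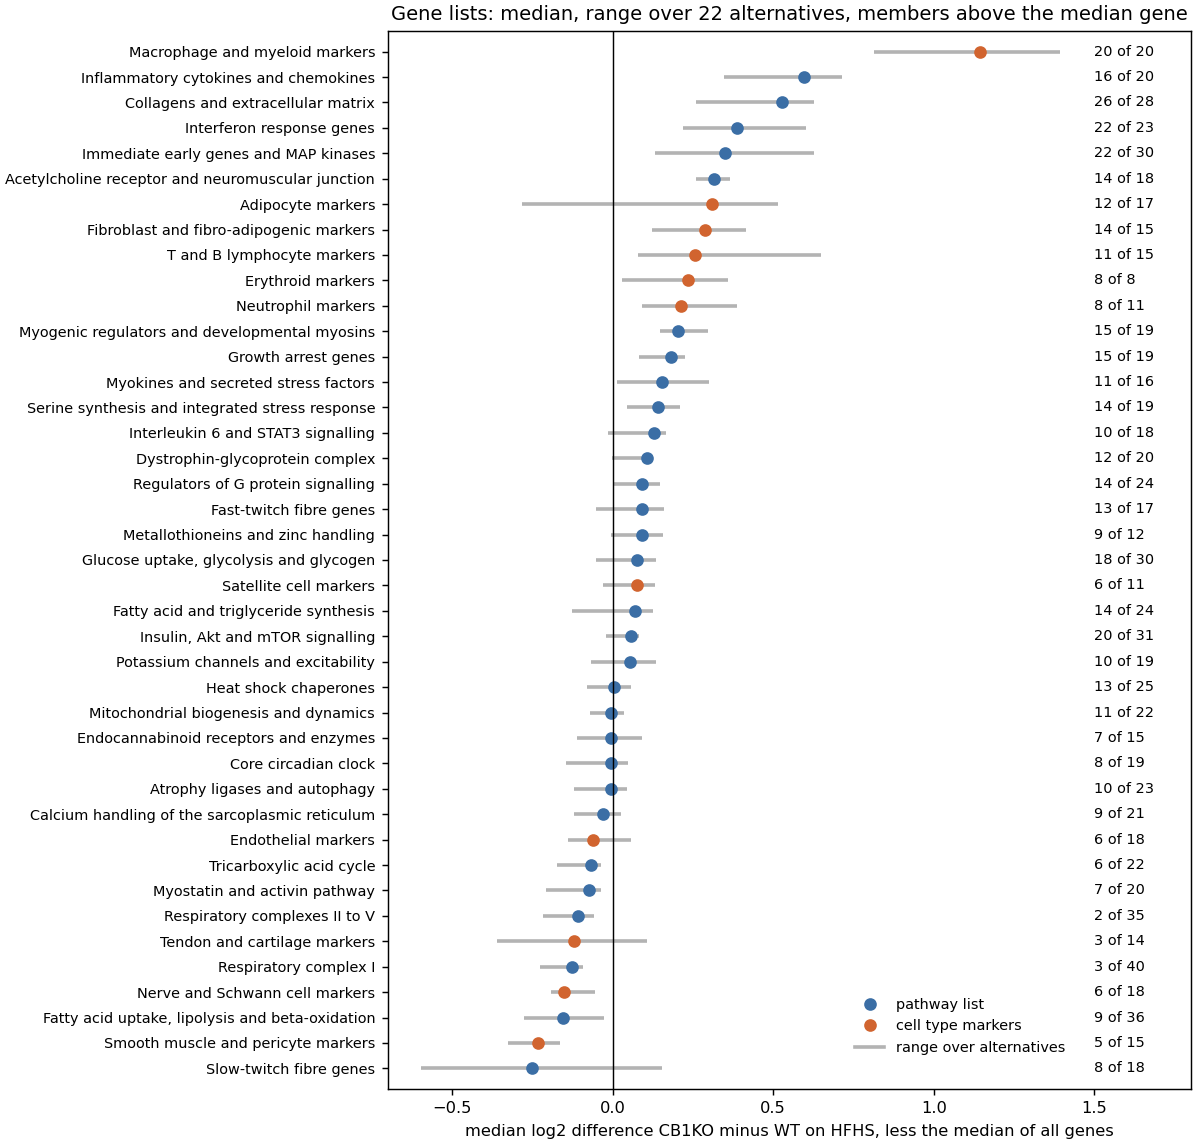
Median log2 difference of each of the 41 gene lists between CB1KO and WT muscle on HFHS, less the median of all genes (horizontal axis, points), with the range over 22 alternatives (grey bars) and the number of members above the median gene out of those tested. Macrophage and myeloid markers lie highest, at 1.14, and adipocyte markers have the widest range, from -0.28 to 0.52.

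No gene passed in the pathways of interleukin 6 and myostatin. The 18 genes of interleukin 6 and STAT3 signalling had a median of -0.01, which was 0.13 above the median gene, 0.03 without WT 3, 0.043 without CB1KO 1 and 0.0048 without CB1KO 4. Lifr, the receptor of leukaemia inhibitory factor, Ptpn11, the phosphatase SHP2, and Il6st, the shared receptor chain gp130, were each lower on every CB1KO array, by -0.42 ± 0.15, -0.49 ± 0.20 and -0.25 ± 0.12 (adjusted p = 0.363, 0.444 and 0.526). Being lower on every CB1KO array was seen in 6.92% of all genes. Dimmer probes of Lifr gave -0.32 and -0.07. Of 20 genes of the myostatin and activin pathway 15 lay below 0 and the median was -0.21, a distance of -0.073 from the median gene that ran from -0.21 to -0.037 over the 22 alternatives. Wfikkn2, which encodes an inhibitor that binds myostatin, was at 1.41, 1.37, 1.45 and 1.74 in WT and at 1.02, 0.62, 0.84 and 0.65 in CB1KO muscle. The groups did not overlap (-0.71 ± 0.21, adjusted p = 0.259), but dimmer probes of Wfikkn2 gave -0.19 ± 0.15 and -0.94 ± 0.58. Among 15 endocannabinoid genes none passed and the median was -0.14, that of all genes. Dagla, a lipase that makes 2-arachidonoylglycerol, differed by -0.46 ± 0.24, and Naaa, which breaks down fatty acid ethanolamides, by 0.49 ± 0.27 (adjusted p = 0.590 and 0.614). Of 16 myokines and secreted stress factors Fgl1 alone passed, and their median was 0.16 above the median gene (0.012 to 0.30 over the alternatives). Apln, which encodes apelin, was higher on every CB1KO array (1.09 ± 0.29) and Ostn, which encodes musclin, lower on every one (-1.52 ± 0.50; adjusted p = 0.186 and 0.310). Among 23 genes of atrophy ligases and autophagy none passed, and the mitochondrial ligase gene Mul1 was at -0.49 ± 0.16 (adjusted p = 0.306).

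Markers of macrophages and myeloid cells stood highest of all 41 lists without a single gene past the threshold. All 20 lay above the median gene, 19 above 0, and the median difference was 1.01. The mean over the list was 0.63 to 1.53 on the WT arrays and 1.40 to 2.50 on the CB1KO arrays, so the groups overlapped. Their summed linear signal, in units of the array's 75th percentile, was 104 to 140 in WT and 142 to 243 in CB1KO muscle, without overlap, and none of the 20 was below background on all 8 arrays. For 6 of the 20 markers the groups did not overlap, where 10.1% of all genes did not and 3.16% had the knockouts higher. Cd74, the invariant chain of antigen presentation, read 4.13, 3.88, 3.70 and 3.53 in WT and 5.20, 5.16, 5.03 and 4.75 in CB1KO muscle (1.22 ± 0.36, adjusted p = 0.247). Fcer1g, the signalling chain of Fc receptors, differed by 1.23 ± 0.43 and Cd14, the co-receptor for lipopolysaccharide, by 0.79 ± 0.28 (adjusted p = 0.362 and 0.377). Chemokines and interferon genes lay on the same side: the median was 0.46 over 20 cytokines and chemokines and 0.25 over 23 interferon response genes. For the cytokines the distance to the median gene went from 0.60 to 0.39 without CB1KO 1. The interferon mean was 0.81 on CB1KO 2, -0.33 to 0.13 on the other knockouts and -0.46 to -0.04 on the WT arrays, and the distance went from 0.39 to 0.22 without CB1KO 2 and to 0.60 without CB1KO 4. Ccl6 differed by 1.49 ± 0.44, Ccl9 by 1.27 ± 0.40 and Bst2, which tethers virus particles to the membrane, by 1.60 ± 0.41 (adjusted p = 0.253, 0.293 and 0.172), while the stromal chemokine Cxcl12 was at -0.48 ± 0.15 (adjusted p = 0.292). The median over 28 collagens and matrix genes was 0.39, with 26 above the median gene. Their mean was 1.18 to 1.67 on the WT arrays, 2.22 on CB1KO 1 and 1.46 to 1.76 on the other knockouts, and the distance to the median gene went from 0.53 to 0.26 without CB1KO 1. Of these, Col4a2 of the basement membrane gave 0.61 ± 0.21 and the protease inhibitor Timp1 1.57 ± 0.57 (adjusted p = 0.351 and 0.390).

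Markers of other cell types lay on either side. Fibroblast markers had a median of 0.15, and 14 of 15 were above the median gene, at a distance of 0.29 that went to 0.12 without CB1KO 1, the array with the highest mean of this list (2.29, against 1.79 to 2.17 in WT). Of 15 smooth muscle and pericyte markers 12 lay below 0, with a median of -0.37, list means of 2.28 to 2.70 in WT and 2.04 to 2.20 in CB1KO muscle and no overlap, while their summed signal, 204 to 271 and 191 to 227, did overlap. Lmod1, Tagln and Actg2, contractile genes of smooth muscle, were at -0.99 ± 0.24, -0.76 ± 0.23 and -1.09 ± 0.42 (adjusted p = 0.135, 0.256 and 0.414). Lmod1 was well above background on 3 WT arrays and 1 CB1KO array, and its difference was -0.19 after normexp and quantile normalization. Among 18 nerve and Schwann cell markers 1 passed, Ngfr, the p75 neurotrophin receptor. It read -1.70, -1.45, -1.21 and -1.28 on the WT arrays and -0.08, 0.00, 0.39 and 0.66 on the CB1KO arrays, a difference of 1.65 ± 0.25 (adjusted p = 0.0149) that leaving out WT 1, WT 2, CB1KO 3 or CB1KO 4 took to as much as 0.0822. The median of that list was -0.29, with 13 of 18 markers below 0. Cd28 passed downwards among 15 lymphocyte markers whose median was 0.12 and of which 11 lay above the median gene; its list means were -2.50 to -2.25 in WT and -2.95 to -1.59 in CB1KO muscle. For the adipocyte markers the mean ran from 0.57 to 1.51 on the WT arrays and from 0.27 to 2.13 on the CB1KO arrays, and for the endothelial markers from 1.76 to 2.23 and from 1.59 to 1.93. The part of these cell types, of the array CB1KO 1 and of the pancreas signal in the gene differences above was not tested.

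The SD arrays of the study allow a test of whether the genotype difference depended on the diet. On SD, 1 gene passed in the same fit (0.00345% of those tested), Hspa1a, an inducible heat shock chaperone, with 3.40 ± 0.39 (adjusted p = 0.0155) against -0.24 ± 0.39 on HFHS. The genotype-by-diet interaction in limma passed for none of the 28972 genes, and 1052 had an unadjusted p under 0.05 (3.63%). Of the genes that passed on HFHS, 48 of the 51 higher and 18 of the 21 lower had the same sign on SD, with a median of 0.54 and -0.42 there. The share of all genes with the same sign on both diets was not counted. Of these 72 genes, 38 had an unadjusted limma p under 0.05 on SD and 59 had one for the interaction. They were picked by their HFHS value, so neither count is a test. Sln, for example, differed by 2.68 ± 0.71 on SD and Fgl1 by 2.69 ± 0.63, and their interactions were 3.18 ± 1.01 and 2.77 ± 0.88 (adjusted p = 1 for both). Chrna1 differed by 1.25 ± 0.44 and Rgs2 by 1.44 ± 0.23 on SD. Nearest to an interaction was Hspa1a itself (-3.64 ± 0.55, adjusted p = 0.357), and next came, among others, Gsdma (3.58 on HFHS, 1.09 on SD), Oc90 (3.23 and 0.10), Vmn1r65 (1.65 and -0.08), Degs2 (-1.44 and -0.38), Slc38a11 (-0.85 and 0.13) and Tmem47 (-0.995 and 0.18), all with adjusted p of 0.840 or more. Both diets have their own WT and CB1KO arrays, but each diet filled 1 slide, and in the interaction the slide cannot be told apart from the diet. Without CB1KO 1 the interaction passed for 11 genes, of which 10 were pancreas genes, among them Try4 at -5.60 ± 0.39 and Ins1 at -3.35 ± 0.27 (adjusted p = 5.93e-05 and 2.04e-04). The pancreas list was drawn up after these calls had been seen, so the 10 of 11 is not a test of it.

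**Figure D5:**
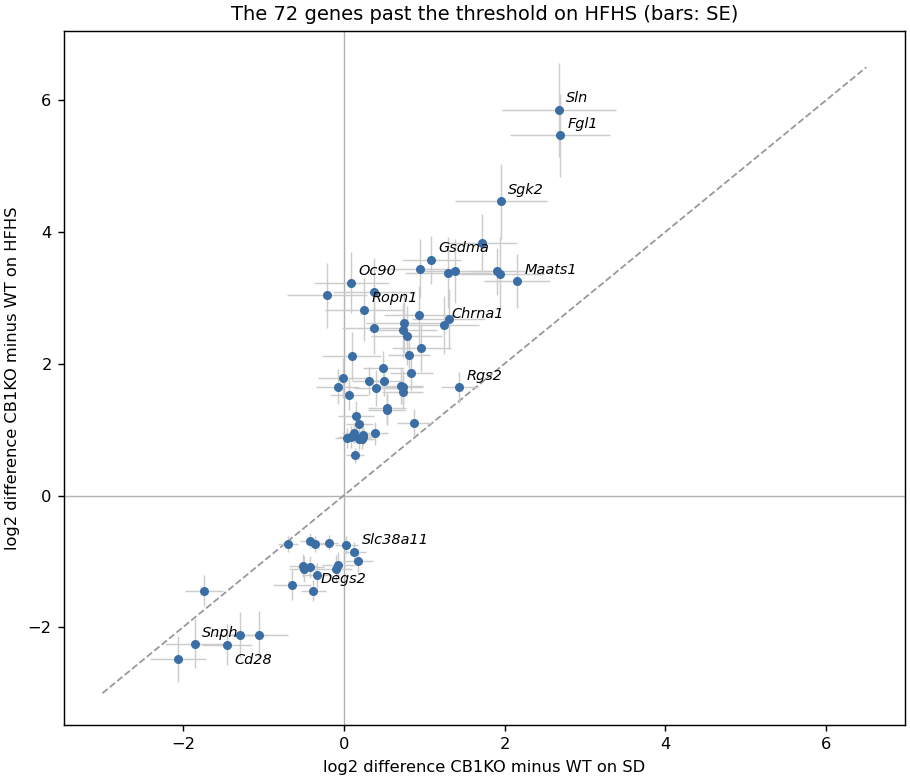
Log2 difference CB1KO minus WT on HFHS (vertical axis) against SD (horizontal axis) for the 72 genes past the threshold on HFHS, with standard errors; the dashed line marks equal differences. These genes were picked by their HFHS value, and 66 of the 72 have the same sign on SD, a share not counted over all genes.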

How the data were processed

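Scanner output was made with Feature Extraction 11.5.1.1, per the file headers. The deposited processed intensity, analysed here, had been background-corrected by that software but not scaled between arrays. The authors' deposited series table holds a score for each spot, found to equal the array's z-score of log2 processed intensity, and served as an alternative. From the intensities of the 55681 non-control probes, log2 minus the array's 75th percentile was computed, with outlier spots set to missing and repeated spots averaged. Symbols came from RefSeq through the array's accessions for 28026 probes, and 27655 kept their identifier. A probe was kept where 4 or more of the 16 arrays had it well above background, and the brightest probe stood for its gene. limma 3.58.1 in R 4.3.3 (lmFit, eBayes) fitted 1 mean per group to all 16 arrays; tests were two-sided with Benjamini-Hochberg adjustment over 28972 genes, and the script was tested on simulated data. The 4 arrays a group limit the precision.

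The genes named are drawn from Cnr1, Il6 and Mstn, the 15 higher and 15 lower genes with a symbol and the largest difference among those that passed without overlap between groups, members of each list that passed or had the smallest p, up to 4, and the genes nearest to an interaction, of which not all are described; others are stated to have been picked later. The members, the 41 gene lists (872 of 886 entries on the array) and the tests were chosen with earlier results of these data known. Lists are described by counts and medians, without a test. Promoter sequences are those of RefSeq, GRCm38.p6. The array's own coordinates are not given, since its grid uses another build. Alternatives covered background correction and scaling, the filter, outlier spots, probe choice, the variance model, array weights, signal spread, the arrays in the fit, the replicate number as a block, and each array left out. Vehicle and S961 were not compared here.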

Additional observations from a re-analysis of the deposited data

Results flagged for a closer look

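In 12 of 220 groups of 4 arrays examined, 1 array lay far from the other 3 relative to the group's range. Chance alone gives this in about 1 group in 20. Among the CB1KO arrays, Il6 was at -2.14 on replicate 4 against -3.53 to -3.44 on the others, and Pcx at 4.00 on replicate 1 against 3.30 to 3.36. Chrne was at -1.39 on replicate 1 against -0.52 to -0.43, and 8430426J06Rik at -0.85 on replicate 3 against -0.31 to -0.30. Among the WT arrays, replicate 1 was apart for Toporsl at -4.55, for Psat1 at -0.16 and for Ccl6 at 3.11. The other 3 WT arrays gave -4.21 to -4.20, -0.95 to -0.86 and 1.87 to 1.95 for these genes. Replicate 2 was apart for Mt1 at 5.09, Il6st at 4.24 and Apln at -3.38, and replicate 3 for Col4a2 at 2.94. The share of spots well above background was 62.4% on WT replicate 4 and 74.1% to 75.04% on the other WT arrays.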

How the results depend on the processing

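All 72 genes kept their direction in every alternative in which they were fitted. For leaving out 1 array this was fixed in advance, since their groups did not overlap. The number past the threshold moved. It was 121 after normexp and quantile normalization (93 higher), 110 with a variance trend and robust variances (37 lower), 41 with the 8 HFHS arrays alone (32 higher, 9 lower), 350 with each array's signal SD in the model (141 and 209), 2124 under array weights (863 and 1261) and 190 without both arrays of unusual spread (110 and 80). Quantile normalization left 9 lower genes and the rescaled deposited scores 10, so the share of higher genes was 84.7% and 84.1%, against 70.8%. Leaving out 1 array gave 15 to 134 genes, 12 to 83 higher and 3 to 51 lower. With the filter on all 16 arrays 49 of the 72 were tested and passed, among 90 genes that passed there (60 higher and 30 lower). Fgl1, Sgk2, Dnajc5g, Gsdma, Plekhh1 and Maats1, 6 of 36 named genes, passed under every alternative in which they were tested. That was 22 alternatives for Gsdma and 21 for each of the others, which the filter on all 16 arrays left untested. Among these others, Fgl1, Sgk2, Dnajc5g and Maats1 were well above background on no WT array of the HFHS diet. They therefore did not meet the main filter through those arrays.

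With replicate number as a block, 36 genes passed, 29 higher and 7 lower, 33 of them among the 72. Same-numbered arrays deviated together with r of 0.43, 0.12, 0.23 and 0.05, and WT 3 correlated best with CB1KO 2 (0.53), so the numbers, which equal the slide column, were not taken as a pairing.

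The SD count was 23 after normexp with quantile normalization, 23 after quantile normalization, 25 with deposited scores, 7 and 2 with filters on all 16 or on 4 of the 8 HFHS arrays, 4 with the mean of a gene's probes, 6 with a variance trend, 48 under array weights, 140 with the signal SD, 227 without both arrays, and 0 to 12 on leaving out 1 array. The interaction passed for 1 gene after normexp with quantile normalization, 10 without both arrays and 0 to 11 on leaving out 1 array. Cnr1 reversed to 0.039, 0.020 and 0.013 without WT 4, CB1KO 2 and CB1KO 4, with a range of -0.46 to 0.039. Il6 reversed to -0.14 without CB1KO 4, with a range of -0.14 to 0.40. Mstn passed with array weights (-1.21). The causes were not tested. Genes near or below background are limited by signal rather than by the number of arrays alone.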
